A study of Homo sapiens with 2 samples.

Results

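ZMAT2 and 7 further genes whose proteins enter the spliceosome when its B complex forms were followed in RNA precipitated with an antibody against ZMAT2. The 8 genes, ZMAT2, MFAP1, SMU1, IK, PRPF38A, PRPF38B, WBP4 and UBL5, were taken by name from a table of 56303 genes, and all 8 were found. The cells were HUH7, an established human hepatocellular carcinoma line, for which the labels give no treatment or genetic change. Of the lysate, 80% was incubated with the antibody (ZMAT2 IP, 1 library) and 10% was kept aside as total RNA of the lysate (Input, 1 library). A rabbit IgG precipitation named in the protocol was not analysed here. The study's stated purpose concerned ZMAT2, splicing and the progression of this cancer.

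Splicing runs through a series of complexes on the pre-mRNA. In the B complex the U4/U6.U5 tri-snRNP has joined the U2 snRNP. A small set of proteins is present at this stage and leaves again as the spliceosome is activated. ZMAT2 corresponds to Snu23 of yeast, a zinc-finger factor that works beside Prp38, which corresponds to human PRPF38A. The data are levels of the mRNAs of these genes, not of the proteins, and not of spliced products.

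The library kit was strand-specific per the labels, and whether strand was used in counting is not stated. The libraries held 25047635 reads in genes for the ZMAT2 IP and 23485789 for Input. Values are reads per gene, CPM (reads relative to library size) after TMM scaling, which centres the ratios on the bulk of genes, and the log2 ratio of ZMAT2 IP over Input. A gene was called when its ratio reached 2-fold and its 95% counting interval left out 0. With 1 library a group there was no replicate and no test, and intervals cover counting error only. Reads appear to have been counted by mate, since 77.9% of counts from 1 to 6 in the ZMAT2 IP and 67.1% in Input were even, so intervals on pairs (2 reads taken as 1) are given where they matter. All 10 hepatocyte markers were well covered, from 4473 reads for TTR to 287640 for ALB in both libraries together. The 10 markers had 15880 CPM in the ZMAT2 IP and 22168 CPM in Input. Of the markers of other cells, CD3E and CD79A (immune), COL1A1 and DCN (fibroblast), CDH5 and KDR (endothelial) and KRT7 (cholangiocyte) had no read, while other markers of the same lists were read: LYZ (immune) had 14848 reads, KRT19 (cholangiocyte) 2026, PECAM1 (endothelial) 593 and PDGFRB (fibroblast and stellate) 132. Their part in the results was not tested. The libraries are of bulk RNA, in which differences between single cells cannot be seen.

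The annotated 5′ ends of the neighbours ZMAT2 and IK and of the paralogs PRPF38A and PRPF38B are shown because the counted exon models of the neighbours, unlike those of the paralogs, begin far upstream of them. Each run covers 30 bases before the RefSeq transcription start (lower case) and the first 30 transcribed bases (capitals), from RefSeq on GRCh38.p14, all on the plus strand. The windows lie at chr5:140700417-140700476, chr5:140647799-140647858, chr1:52404572-52404631 and chr1:108692280-108692339.
ZMAT2: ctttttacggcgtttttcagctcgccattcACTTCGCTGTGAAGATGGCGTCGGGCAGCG
IK: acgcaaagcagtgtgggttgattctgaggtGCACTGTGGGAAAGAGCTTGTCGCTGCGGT
PRPF38A: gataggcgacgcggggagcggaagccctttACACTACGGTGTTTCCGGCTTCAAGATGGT
PRPF38B: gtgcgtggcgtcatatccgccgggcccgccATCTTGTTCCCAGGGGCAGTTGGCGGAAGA

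The exon model of ZMAT2 in the deposited table began 1767 bases upstream of this start and that of IK 771 bases upstream, whereas PRPF38A began 38 bases upstream and PRPF38B 13 bases inside the RefSeq transcript (recorded as -13). The upstream part of ZMAT2 includes 152 exon bases (8.39% of its exon length) that also lie in exons of HARS2, the gene before it on the same strand. IK shares 70 bases (1.71%) with NDUFA2 and WBP4 167 bases (6.37%) with ELF1, both on the opposite strand, and the other 5 genes share none. Of the 8 genes, 7 had a start-site sequence. The 7 letters AAGATGG, part of the consensus of the transcription factor YY1 and chosen after these windows were read, stood on 1 of the strands within 30 bases of the start in 3 of the 7 (ZMAT2, PRPF38A and PRPF38B). They did so in 364 of 10674 protein-coding genes with at least 20 reads (3.41%). Because the letters were picked from these windows, the 3 of 7 cannot be judged against that share. Binding of YY1 was not tested. At none of the 7 starts were the first transcribed bases C and then 4 letters of C or T, as in mRNAs with a terminal pyrimidine tract, against 574 genes (5.38%).

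ZMAT2, whose protein was the target of the antibody, was the gene of the 8 that stood far above the rest. It had 36553 reads (1514 CPM) in the ZMAT2 IP and 5187 reads (212.9 CPM) in Input. The log2 ratio was 2.83 (2.79 to 2.87, or 2.77 to 2.89 on pairs), which is 7.11-fold higher in the ZMAT2 IP. Per kilobase of exon it reached 835 RPKM (CPM per kilobase) in the ZMAT2 IP and 118 RPKM in Input. In the ZMAT2 IP 28 of 12968 protein-coding genes had a higher RPKM (0.216%), and in Input 272 (2.10%). ZMAT2 was thus already among the more abundant mRNAs of the lysate. Taking every read of HARS2, 887 in the ZMAT2 IP and 561 in Input, off the ZMAT2 counts left 35666 and 4626 reads and a log2 ratio of 2.96 with a lower bound of 2.92, an alternative chosen after seeing the data. Since the ratio of HARS2 is below that of ZMAT2, this subtraction could only raise the value, and how shared reads were counted is not known.

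Against genes of like depth, ZMAT2 lay near the top. Of 78 other protein-coding genes with total reads within 1.25-fold of its own, 1 had a higher ratio and 77 a lower one, and the median log2 ratio of these genes was 0.10. Total reads, here and below, include the ZMAT2 IP reads that enter the ratio, so matching by depth is not independent of the ratio. Of 6602 protein-coding genes that reached 1000 reads, 12 had a higher ratio than ZMAT2 (0.182%). Genes with a ratio much like that of ZMAT2, by absolute difference of log2 ratios over the 2 libraries, were MT-ND4L (3.02) and PLEC (2.94) above and SPTBN1 (2.79), MICAL3 (2.71) and FLNA (2.70) below. MT-ND4L is a mitochondrially encoded subunit of respiratory complex I, PLEC encodes plectin, a linker of intermediate filaments, SPTBN1 a beta spectrin of the membrane skeleton, MICAL3 an actin-regulating monooxygenase and FLNA the actin crosslinker filamin A. Of the exon bases of MICAL3, 16.3% also lie in another gene. None of the other 7 B complex genes was near these values.

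**Figure D1:**
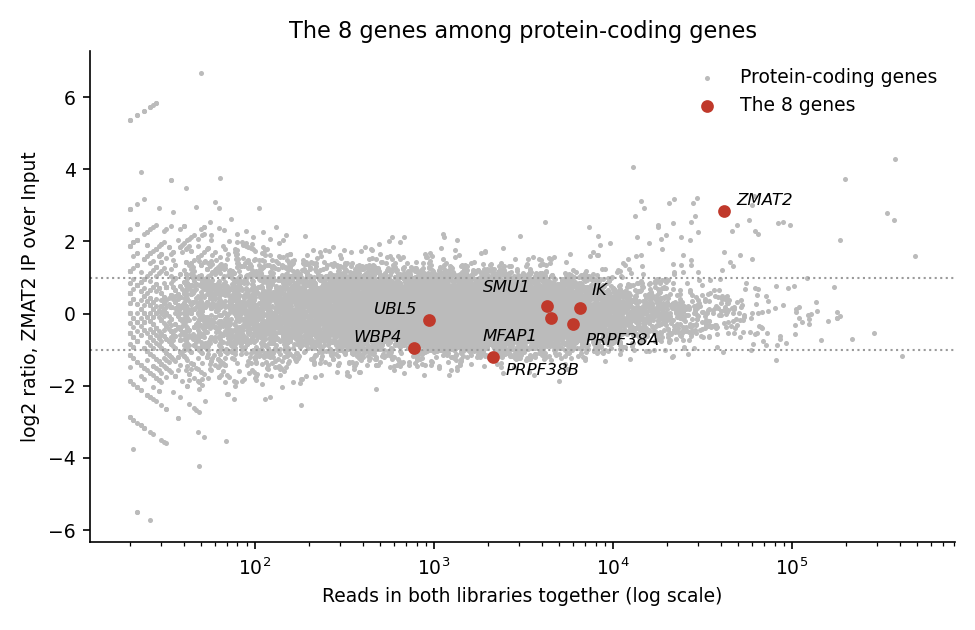
Each grey point is a protein-coding gene with at least 20 reads, placed by its reads in both libraries together (log scale) and its log2 ratio of ZMAT2 IP over Input; the 8 genes are red and dotted lines mark 2-fold. ZMAT2 lies at 2.83 above nearly all genes of its depth, PRPF38B at -1.19 lies just past the lower line, and the other 6 lie within 2-fold.

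PRPF38A and MFAP1 encode the proteins that sit closest to ZMAT2 in the B complex, where PRPF38A contacts both. PRPF38A had 2686 reads (111.2 CPM) in the ZMAT2 IP and 3311 reads (135.9 CPM) in Input, a log2 ratio of -0.29 (-0.36 to -0.22). MFAP1 had 2140 reads (88.6 CPM) in the ZMAT2 IP and 2344 reads (96.2 CPM) in Input, which gave a log2 ratio of -0.12 (-0.20 to -0.03; on pairs -0.24 to 0.0012). Neither mRNA was called, and both were slightly lower in the ZMAT2 IP. Their ratios lay well inside those of genes of like depth: 549 of 808 such genes stood above PRPF38A (67.9%) and 521 of 995 above MFAP1 (52.4%). ZMAT2 minus PRPF38A was between 3.03 and 3.20 on the log2 scale, and ZMAT2 minus MFAP1 was 2.95 (2.85 to 3.04).

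PRPF38B, a paralog of PRPF38A whose part in splicing is less well described, was the gene of the 8 called lower. It had 651 reads (27.0 CPM) in the ZMAT2 IP and 1502 reads (61.7 CPM) in Input. The log2 ratio was -1.19 (-1.33 to -1.06, or -1.39 to -1.01 on pairs), which is 2.29-fold lower in the ZMAT2 IP. Of 1392 protein-coding genes of like depth, 9 had a lower ratio (0.647%). It shares no exon bases with another gene, and the difference between the paralogs, PRPF38A over PRPF38B, was 0.90 (0.75 to 1.06, or 0.69 to 1.13 on pairs). Because both come from the same 2 libraries, the scaling cancels in this difference.

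SMU1 and IK (also called RED) encode partners that form a stable unit of the B complex and are needed for its activation. SMU1 had 2289 reads (94.8 CPM) in the ZMAT2 IP and 2001 reads (82.1 CPM) in Input, a log2 ratio of 0.21 (0.12 to 0.29). IK had 3420 reads (141.6 CPM) in the ZMAT2 IP and 3092 reads (126.9 CPM) in Input, a log2 ratio of 0.16 (0.09 to 0.23). Both stood slightly higher in the ZMAT2 IP without reaching 2-fold, and their ratios differed by 0.05 with an interval from -0.06 to 0.16. With library totals in place of TMM, IK stood at 0.053 with an interval that included 0 (-0.018 to 0.123). That of SMU1 left out 0 (0.014 to 0.188). Of genes of like depth, 311 of 1018 stood above SMU1 (30.6%) and 275 of 729 above IK (37.7%).

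WBP4 and UBL5 encode small B complex factors. WBP4, also called FBP21, is a WW-domain protein that binds the helicase SNRNP200, and UBL5 is the human counterpart of yeast Hub1, a ubiquitin-like protein that binds SART1. WBP4 had 264 reads (10.9 CPM) in the ZMAT2 IP and 514 reads (21.1 CPM) in Input, the fewest reads of the 8 over both libraries together. Its log2 ratio was -0.95 (-1.17 to -0.73, or -1.26 to -0.64 on pairs), 1.93-fold lower in the ZMAT2 IP and just short of 2-fold. Of 1296 genes of like depth, 46 had a lower ratio than WBP4 (3.55%). Scaled by library totals, WBP4 stood at -1.05 and was called lower, where 8.71% of all genes were called lower. UBL5 had 437 reads (18.1 CPM) in the ZMAT2 IP and 498 reads (20.4 CPM) in Input, a log2 ratio of -0.18 with an interval from -0.36 to 0.01. With library totals in place of TMM the interval left out 0 (-0.47 to -0.093), so whether it does depends on the scaling.

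**Figure D2:**
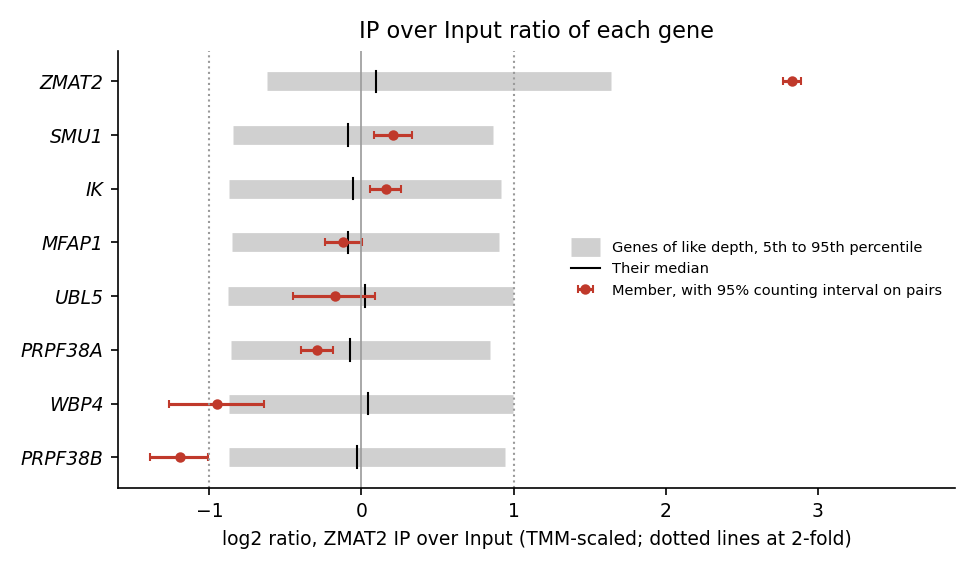
Red points show the log2 ratio of ZMAT2 IP over Input of each of the 8 genes with its 95% counting interval on pairs of reads; grey bars span the 5th to 95th percentile of protein-coding genes of like depth and black ticks their median. ZMAT2 lies beyond the upper end of its bar (1.64), PRPF38B and WBP4 lie below the lower ends of theirs (-0.87 for both), and the other 5 genes lie inside.

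In all, 1 of the 8 genes was called higher and 1 lower. Over the 17915 genes with at least 20 reads, 7.41% were called higher and 6.97% lower. Over protein-coding genes that reached 1000 reads, 4.1% were called higher and 2.62% lower. A count of 1 in 8 is 12.5%, and with so few genes it cannot be set apart from these shares. At 1.5-fold ZMAT2 was called higher and PRPF38B and WBP4 lower, where 17.8% of all genes were called higher and 16% lower. The median log2 ratio of the 8 was -0.15, against 0.0059 over all genes. Together the 8 genes had 48440 reads (0.193% of the library) in the ZMAT2 IP and 18449 reads (0.0786%) in Input, and ZMAT2 made up 75.5% of these reads in the ZMAT2 IP and 28.1% in Input. Without ZMAT2 the sums were 11887 and 13262 reads, a log2 ratio of -0.15.

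The order of the log2 ratios was ZMAT2, SMU1, IK, MFAP1, UBL5, PRPF38A, WBP4 and PRPF38B. Of the 28 differences between any of these genes, 24 had a counting interval that left out 0, on reads and on pairs alike. The 4 whose interval included 0 were all between neighbours in the order: SMU1 and IK, MFAP1 and UBL5 (0.06, -0.15 to 0.26), UBL5 and PRPF38A (0.11, -0.09 to 0.32), and WBP4 and PRPF38B (0.24, -0.01 to 0.50). These intervals cover counting error only, however. Log2 ratios of genes of like depth had an SD over genes of 0.530 to 0.711, larger than the 0.50 that separated SMU1 from PRPF38A. That SD is over different genes and does not measure the spread of 1 gene between libraries, which is unknown with 1 library per group. The order within the middle 5 genes is therefore a description of these 2 libraries.

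Levels of different genes were compared per length. In Input the order was ZMAT2 (118 RPKM), MFAP1 (40.5 RPKM), IK (31.0 RPKM), PRPF38A (24.0 RPKM), SMU1 (11.5 RPKM), PRPF38B (10.6 RPKM), UBL5 (10.6 RPKM) and WBP4 (8.04 RPKM). The counting intervals of SMU1, PRPF38B and UBL5 overlapped from one to the next in this order, and those of the other neighbours did not. In the ZMAT2 IP the order was ZMAT2 (835 RPKM), MFAP1 (37.3 RPKM), IK (34.6 RPKM), PRPF38A (19.7 RPKM), SMU1 (13.3 RPKM), UBL5 (9.37 RPKM), PRPF38B (4.63 RPKM) and WBP4 (4.17 RPKM). There PRPF38B and WBP4 overlapped, and on pairs MFAP1 and IK did too. ZMAT2 exceeded the next gene 22.4-fold in the ZMAT2 IP and 2.90-fold in Input. These levels rest on the merged exon length of all annotated transcripts, so a gene with long rarely used exons is understated.

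**Figure D3:**
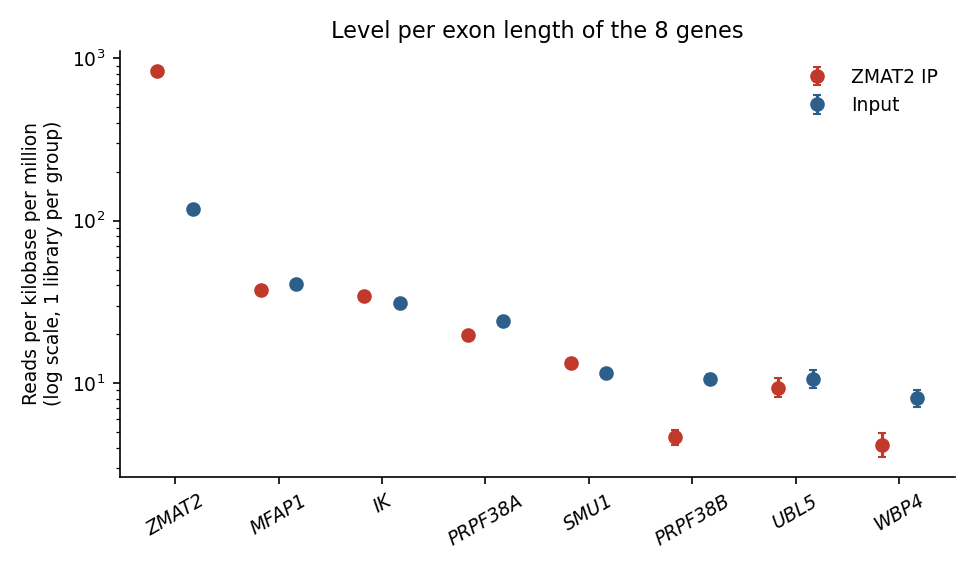
Points show RPKM (log scale) of the 8 genes in the ZMAT2 IP (red) and Input (blue), 1 library each, ordered by the Input level; bars are 95% counting intervals on pairs of reads. ZMAT2 stands at 835 RPKM in the ZMAT2 IP and 118 RPKM in Input, and PRPF38B and WBP4 are the genes with the widest gap in the other direction.

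The gene models of the 8 differ in size. ZMAT2, at 140698680 to 140706676 on chromosome 5, has 7 exon blocks and 1812 exon bases, fewer bases than all but 6.5% of protein-coding genes. UBL5, at 9827892 to 9830115 on chromosome 19, is the most compact, with 3 exon blocks and a span of 2224 bases. SMU1, at 33041764 to 33076659 on chromosome 9, has the longest exon model (7122 bases in 12 blocks) and the widest span (34896 bases). IK, at 140647058 to 140662479 on chromosome 5, has the most exon blocks, 21. The remaining genes are PRPF38A at 52404564 to 52420839 and PRPF38B at 108692323 to 108701803 on chromosome 1, MFAP1 at 43804492 to 43824802 on chromosome 15, and WBP4 at 41061274 to 41084006 on chromosome 13. PRPF38A and PRPF38B have 5658 and 5817 exon bases, and ZMAT2 and UBL5 have 1812 and 1931. A relation of exon length to the ratio was not tested. Pseudogene copies took few reads: of 7 rows named after PRPF38A, MFAP1 or UBL5, 4 had no read, and all 7 together had 13 reads in the ZMAT2 IP and 10 reads in Input. MFAP1P1 held 10 reads in each library.

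ZMAT2 and IK lie near each other on chromosome 5, with 36.2 kb between the end of IK and the start of ZMAT2. Their ratios of 2.83 and 0.16 differed by 2.67 (2.59 to 2.75). Within 100 kb of either gene the table holds 25 other genes, of which 17 had at least 20 reads, and the 8 others, the vault RNA genes VTRNA1-1, VTRNA1-2 and VTRNA1-3 among them, had none. Of the 17, 15 stood above 0, against 9010 of 17915 over all genes. Their median log2 ratio was 0.51, against 0.0059 over all genes, and none was above 1.17, far below ZMAT2. Several of the 17 share much of their exon bases with other genes, so their counts may not be independent. The shares were 78.6% for ANKHD1-EIF4EBP3, 73.4% for EIF4EBP3 and 93.3% for AC005609.16. Directly before ZMAT2, the mitochondrial and cytosolic histidyl-tRNA synthetase genes HARS2 and HARS1 had log2 ratios of 0.67 (0.52 to 0.83) and 0.54 (0.44 to 0.64), and WDR55 one of 0.29 (0.16 to 0.42). DND1, all of whose exon bases lie in other genes, stood at -0.36 (-0.77 to 0.05). Upstream of IK, NDUFA2, a complex I subunit gene, was at 0.10 (-0.16 to 0.37) and TMCO6 at 0.84 (0.63 to 1.05). The more distant SRA1 (0.58), APBB3 (0.74), SLC35A4 (0.39) and ANKHD1-EIF4EBP3 (0.48) were above 0, and EIF4EBP3 had 41 reads in all.

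Of the 17 neighbours with at least 20 reads, 3 were called higher and none lower. Over all genes 7.41% were called higher and 6.97% lower, and with 17 genes the counts cannot be set apart from these shares. The 3 called higher had few reads. CD14, the lipopolysaccharide co-receptor gene, had 70 reads in the ZMAT2 IP and 32 in Input (1.13, 0.52 to 1.79), AC011380.9 had 40 and 18 reads (1.14, 0.33 to 2.05) and PCDHA3, a clustered protocadherin gene, had 52 and 23 reads (1.17, 0.46 to 1.97). AC011380.9 shares 83.1% of its exon bases with other genes and PCDHA3 51.8%. The neighbouring PCDHA1 (34 reads in all), PCDHA2 (131 reads) and AC005609.16 (22 reads) had intervals that included 0.

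**Figure D4:**
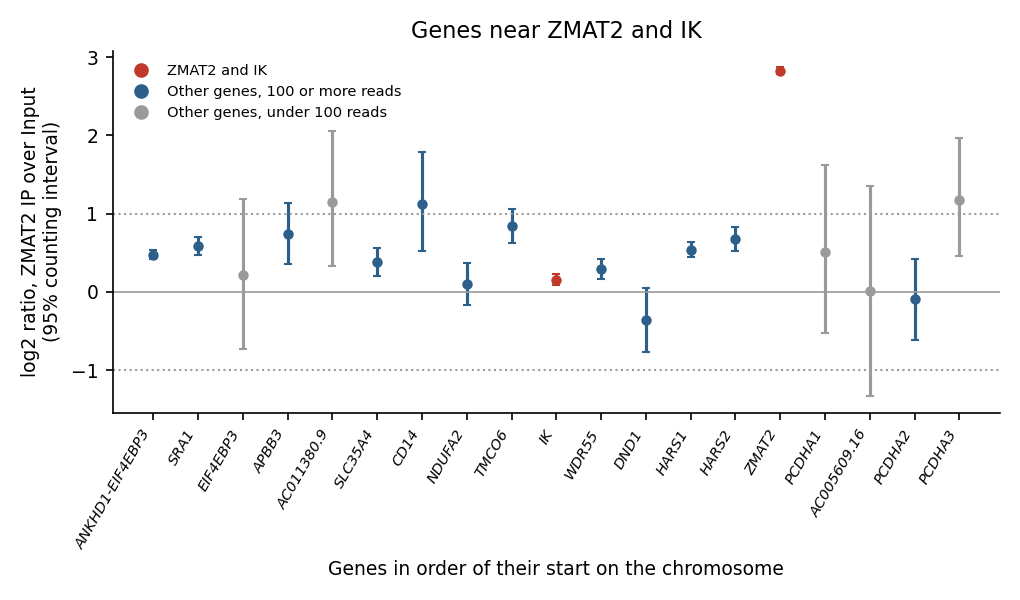
The log2 ratio of ZMAT2 IP over Input with its 95% counting interval is plotted for ZMAT2 and IK (red) and the 17 genes with at least 20 reads within 100 kb of either, in order of their start on the chromosome; genes under 100 reads are grey and dotted lines mark 2-fold. ZMAT2 stands alone at 2.83, and the highest of the other 17 is at 1.17.

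The lists beside which the 8 genes were set were those of the tri-snRNP, of other B complex and activation factors, and of proteins with U1-like or matrin-type zinc fingers. In the tri-snRNP, 2 of 16 genes were called higher (12.5%, against 7.41% of all genes) and none lower (against 6.97%). Over protein-coding genes that reached 1000 reads, the shares were 4.1% and 2.62%. With 16 genes the counts cannot be set apart from these shares. Of the 16, 14 stood above 0, against 9010 of 17915 over all genes, and the median log2 ratio was 0.28, against 0.0059. PRPF6, a scaffold of the tri-snRNP, stood at 1.32 (1.27 to 1.37) and SART1, the partner of UBL5, at 1.17 (1.10 to 1.24). SNRNP200, the helicase that WBP4 binds, stood at 0.93 (0.90 to 0.96), PRPF8, the core of the spliceosome, at 0.85 (0.80 to 0.89), and SNRNP27 was lowest at -0.51 (-0.60 to -0.43). UBL5 and WBP4 thus had lower ratios than the genes of their partners, -0.18 and -0.95. Of the 16 tri-snRNP genes, 7 stood between 0.85 and 1.32 and the other 9 between -0.51 and 0.29. This split was placed after the ratios were seen and was not tested. Apart from ZMAT2, none of the 8 B complex genes exceeded 0.21.

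Of 29 other B complex and activation genes, none was called in either direction, against 7.41% of all genes called higher and 6.97% lower. Above 0 stood 12 of the 29, against 9010 of 17915 over all genes. The median log2 ratio was -0.11, near the -0.15 of the 8 genes. The range ran from CWC27, a cyclophilin-type protein gene, at -0.74 (-0.85 to -0.63) to DHX16, a helicase gene of the activation step, at 0.85 (0.75 to 0.95). SRRM2 and THRAP3, the list's genes with the most reads, lay at 0.13 (0.09 to 0.17) and 0.03 (-0.02 to 0.08). Among 15 zinc-finger genes of the U1-like or matrin type, to which ZMAT2 and WBP4 both belong, 11 had at least 20 reads, and ZMAT1, ZMAT4, ZFR2 and RBM20 had no read in either library. In this list 2 of the 11 genes were called higher and 1 lower, counts too small to set apart from the 7.41% and 6.97% of all genes. Besides ZMAT2, the U2 snRNP gene SF3A2 was higher at 1.11 (1.01 to 1.21), with 12.7% of its exon bases shared with another gene. ZMAT3, a p53 target gene named for the same type of finger, was lower at -1.30 (-1.56 to -1.05), from 182 reads in the ZMAT2 IP and 454 reads in Input. MATR3, which encodes matrin 3, was at 0.23 (0.19 to 0.27).

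**Figure D5:**
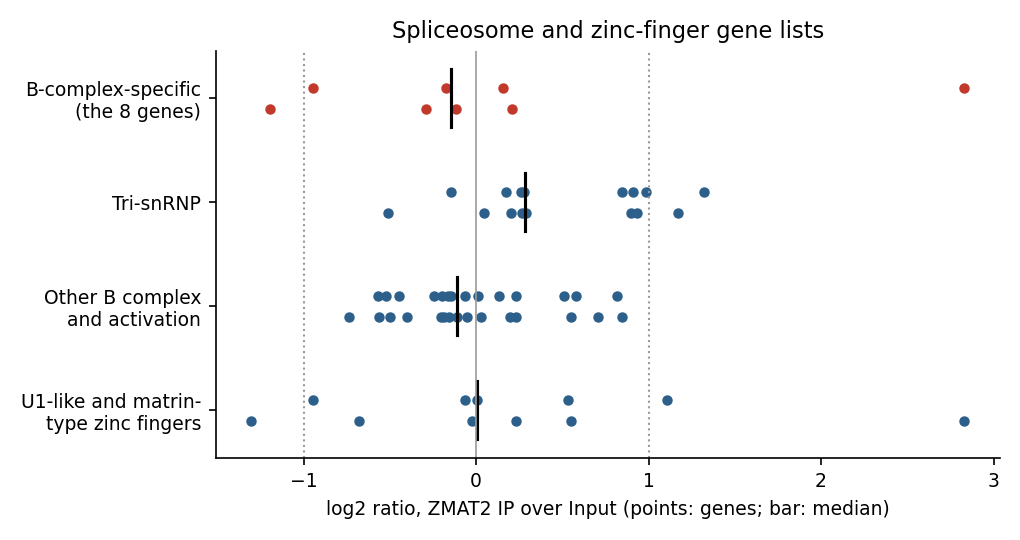
Each point is a gene with at least 20 reads, placed by its log2 ratio of ZMAT2 IP over Input, with the 8 B-complex-specific genes in red above the tri-snRNP, other B complex and activation, and zinc-finger lists in blue; black bars are medians and dotted lines mark 2-fold. The medians are -0.15, 0.28, -0.11 and 0.00, and ZMAT2, a member of the first and last lists, is the point at 2.83.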

How the data were processed

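RNA immunoprecipitation and sequencing gave 1 ZMAT2 IP and 1 Input library. The deposited table holds raw read counts for each gene beside its exon coordinates. Its build was GRCh38, and the tools listed are STAR 2.5.3a, fastp 0.23.4 and edgeR 3.12.1, per the submitters' processing notes. Which program counted reads, and on which annotation, is not given in the sources used here. In the authors' deposited table, the Length column is the merged exon length and differed from the merged coordinates for 10 genes.

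Counts were scaled by TMM (edgeR 4.0.16, R 4.3.3) over genes whose reads in both libraries summed to 20 or more. Log2 ratios used a prior count of 0.5. Intervals are exact 95% intervals (Clopper-Pearson for a ratio, Poisson for a level, conditional odds ratio for a difference of 2 genes; SciPy 1.17.1). The calculation was tested on simulated data. No edgeR quasi-likelihood test was possible, as 1 library per group leaves no residual degrees of freedom. Alternatives were library totals, DESeq2 1.42.0 size factors, upper-quartile factors, TMM without mitochondrial genes, other read minimums, a prior count of 2, pairs of reads, a 1.5-fold threshold and leaving out genes with shared exon bases. A count of 0 allows up to 3 reads. Biotypes and names came from RefSeq (GRCh38.p14): 33451 rows matched by symbol, 1812 by an older symbol, 37 by position, and 21003 did not match.

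The genes, lists and rules were chosen with earlier results of these data known. Named besides the 8 genes were, per list, the 2 genes with the most reads, the highest, the lowest and any called; all neighbours within 100 kb with at least 20 reads; genes sharing exon bases; pseudogene copies; and the 3 genes on either side of ZMAT2 in ratio with at least 1000 reads, of which 1 is not reported here. HARS is given by its current symbol HARS1.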

Additional observations from a re-analysis of the deposited data

How the results depend on the processing

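No paired analysis was possible because each group has 1 library, and for the same reason none could be left out. ZMAT2 was called higher and PRPF38B lower under all 10 alternatives, which covered scaling, the read minimum, the prior count, pairs of reads and a 1.5-fold threshold. Genes called lower numbered 2 (PRPF38B and WBP4) with library totals in place of TMM and 2 at 1.5-fold, against 1. The ZMAT2 log2 ratio was 2.72 with library totals, which moved the median of all genes by -0.11, and 2.96 without all HARS2 reads; it was within its interval otherwise. The ratios of the other 7 genes kept their sign in all 61 values from 9 alternatives, and 57 lay within the counting interval; the 4 outside it, for MFAP1, SMU1, IK and PRPF38A, were with library totals. WBP4 and UBL5 have fewer than 1000 reads and gave no value at that minimum. In the zinc-finger list, 0 genes were called higher when genes sharing 5% or more of their exon were left out, since ZMAT2 and SF3A2 both share more, and 2 were called lower with library totals (ZMAT3 and WBP4). Over all genes 1328 were higher and 1248 lower, against 1023 and 1561 with library totals (51.6% and 39.6% of calls were higher), 2004 and 2014 with no minimum, 761 and 582 at 100 reads, 329 and 191 at 1000 reads, 785 and 862 without genes that share exon bases, and 3196 and 2868 at 1.5-fold. UBL5's interval left out 0 with library totals, upper-quartile factors and a minimum of 100 reads, and included it otherwise. The IgG precipitation was not analysed here, so ratios are relative to Input and were not set against unspecific recovery.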
